A study of Mus musculus with 18 samples.

Results

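Members of the small proline-rich (Sprr) family were followed through the differential m6A peaks of the pregnant mouse uterus: Sprr1a, Sprr2a1, Sprr2a2, Sprr2a3, Sprr2b, Sprr2d, Sprr2e, Sprr2f, Sprr2g and Sprr2h, 10 genes in all. A row of the authors' deposited peak tables was taken when its assigned gene was 1 of these 10, or when its annotation named 1 of them. This gave 15 of the 41084 peaks in the 4 tables, assigned to 8 of the 10 genes, among 16483 genes with an assigned peak. The genes were chosen by the presence, direction and log likelihood ratio of their peaks in these tables, so their counts, directions and scores are given as a description and without a test.

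Uteri came from wild-type (WT in the labels) ICR mice on day 5 of pregnancy in 3 groups. Veh mice received saline by intraperitoneal injection daily from day 1 to day 4. LPS mice received saline in the same way and lipopolysaccharide (LPS), a component of the bacterial outer membrane that triggers inflammation, on days 3 and 4. Mel+LPS mice received melatonin daily, in saline that also held ethanol, and LPS on days 3 and 4. Each group had 3 input libraries and 3 libraries immunoprecipitated with an antibody against N6-methyladenosine (m6A), 18 libraries in all. The tables list peaks lower in LPS than in Veh, higher in LPS than in Veh, lower in Mel+LPS than in LPS, and higher in Mel+LPS than in LPS. Each peak has 1 score per comparison. The tables do not name it, and it was read as the log10 likelihood ratio that MACS2 gives a differential peak, in which a higher value means a clearer difference between the 2 groups; it is called the log likelihood ratio below. There is no value per replicate, so no score below has a replicate error, and the read depth behind it is unknown. The table of peaks lower in LPS stops within a later chromosome, and comparisons between tables were made on chromosomes 1 to 9, which include the Sprr genes on chromosome 3.

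Small proline-rich proteins are precursors of the cornified envelope, the insoluble shell that squamous epithelial cells build beneath their membrane when transglutaminases cross-link these proteins. Their genes sit side by side in the epidermal differentiation complex, together with other envelope genes such as those for loricrin, involucrin and filaggrin. In the mouse uterus the Sprr2 genes are transcribed in the epithelium and respond to estrogen, Sprr2f being the best known example. m6A is written on messenger RNA at a short consensus of A, G or T, then A or G, then AC, then A, C or T, with GGAC as its most favoured core, and it is most frequent near stop codons and in 3′UTRs.

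The stretch of the Sprr2 3′UTR that the peaks of Sprr2d, Sprr2f and Sprr2g share is printed first, because it allows the members with a peak there to be set beside those without. Each line gives 30 bases of a GENCODE transcript (release M21, GRCm38, plus strand, 5′ to 3′), with the 5 bases at the consensus position in capitals. The first 3 lines are the members with a peak over this position.
Sprr2d, chr3:92340530-92340534: cagcagtcatcaGGACAaagggaaaagaag
Sprr2f, chr3:92366145-92366149: cagcagtcttcaGGACAggggaaagagaaa
Sprr2g, chr3:92374890-92374894: cagcaatcttcaGAACAaggggaagagaag
Sprr2e, chr3:92353113-92353117: cagcagtcatcgGGACAaggggaagagaag
Sprr2h, chr3:92386977-92386981: cagcagtcatcaTGACAaggggaagagaag
Sprr2b, chr3:92317763-92317767: tcccagtcatcaGGACTgggaagtaagaga
Sprr2a1, chr3:92219376-92219380: tcccagtcatcaGGACCaggggaagtgaaa

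In Sprr2d, Sprr2e, Sprr2f, Sprr2g and Sprr2h the capitals begin 19 bases after the end of the coding sequence, in Sprr2b 18 bases and in Sprr2a1 33 bases after it. Sprr2a2 and Sprr2a3 carry the same 30 bases as Sprr2a1 at the same distance. All 9 Sprr2 members hold letters of the consensus here, and Sprr2d, Sprr2e and Sprr2f hold the same 5 bases, GGACA. The 30 bases of Sprr2e matched those of Sprr2d at 27 positions and those of Sprr2h did so at 27, against 24 for Sprr2f and 25 for Sprr2g. Sprr2e and Sprr2h, which had no peak, were thus closer to Sprr2d over these bases than Sprr2f and Sprr2g, which had one. A match to these letters is a description of the sequence and does not show that the base is methylated.

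The Sprr genes were listed in 1 direction in each comparison. Of the 10 members, 8 had a peak lower in LPS than in Veh, 12 peaks in all, where 48.9% of the 9122 genes on chromosomes 1 to 9 that appear in any of the tables had one. No member had a peak higher in LPS than in Veh, a class that held 45.5% of those genes. Between Mel+LPS and LPS, 3 members had a lower peak (39.2% of genes) and 0 had a higher one (49.5% of genes). Sprr2e and Sprr2h had no row in any of the 4 tables, so the shares of genes are to be set beside the 8 members with a row. A gene is absent from the tables when no differential peak was assigned to it, whether or not its RNA carried m6A. In a whole uterus, fewer cells of a type and less RNA per cell cannot be told apart, and whether the level of Sprr RNA itself differed between the groups was not tested, since the tables hold no expression values.

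The Sprr peaks lower in LPS than in Veh lay far above the middle of their table. Their median log likelihood ratio was 16.2 (range 1.80 to 174.4, 12 peaks), beside a median of 2.65 over all 6259 peaks of that table on chromosomes 1 to 9. Of these 12, 10 exceeded that median, 9 exceeded the 90th percentile (6.84) and 4 exceeded the 99th (20.0). Among the 100 highest peaks of the table on these chromosomes 6 were Sprr peaks, and among the 10 highest of the 575 on chromosome 3 there were 2. The highest values of the table belonged to Clca1, which encodes a protein secreted by mucus-forming epithelial cells, with 221.6 as its maximum. The 3 Sprr peaks lower in Mel+LPS than in LPS had log likelihood ratios of 7.23, 4.74 and 1.93, beside a median of 3.09 over 4736 peaks, and none of the 3 exceeded the 99th percentile of 13.9.

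**Figure D1:**
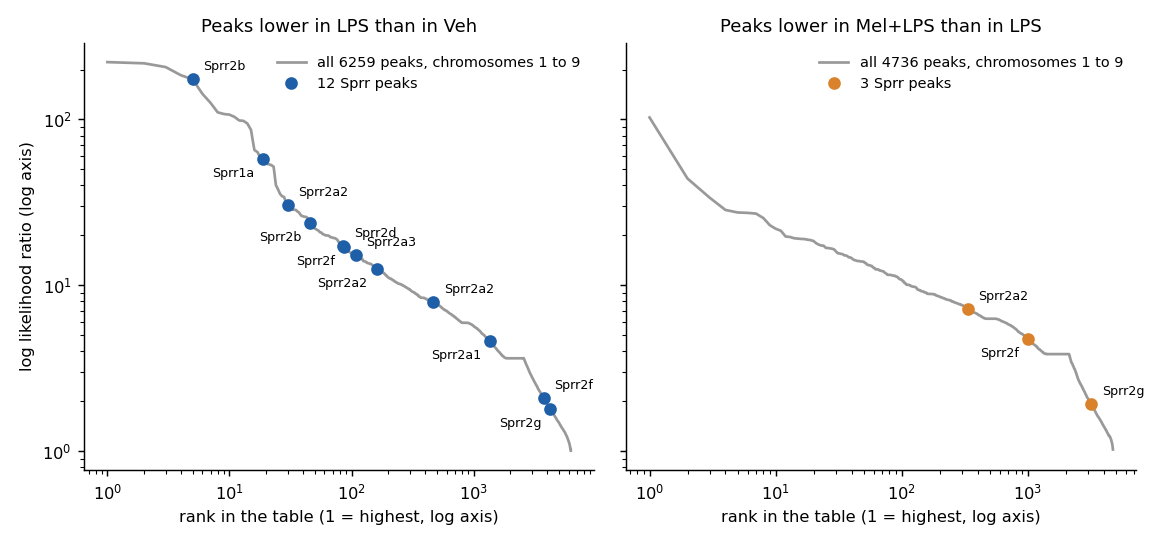
Log likelihood ratio (log axis) against rank (log axis, 1 is the highest) for all peaks lower in LPS than in Veh (left) and lower in Mel+LPS than in LPS (right) on chromosomes 1 to 9, with the Sprr peaks as coloured points labelled by assigned gene. In the left panel the Sprr peaks run from rank 5 (Sprr2b, 174.4) to rank 4244 (Sprr2g, 1.80), while in the right panel they begin at rank 333 (Sprr2a2, 7.23).

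The 12 peaks lower in LPS followed one another without interruption over 277072 bases of chromosome 3. The next peaks of the same table outside this span were assigned to Gm35439 (log likelihood ratio 5.52) and to Lce3a, a late cornified envelope gene (3.63). The span held 1 peak of another gene in any table, on the predicted gene Gm5850, which was higher in Mel+LPS than in LPS with a value of 1.78. Of 3416 adjoining, non-overlapping windows of this length with a peak in any table on chromosomes 1 to 9, the median held 1 peak lower in LPS. At least 12 such peaks were found in 10 windows, of which 4 held 0 peaks higher in LPS. The ends of the span were set by the Sprr peaks themselves.

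**Figure D2:**
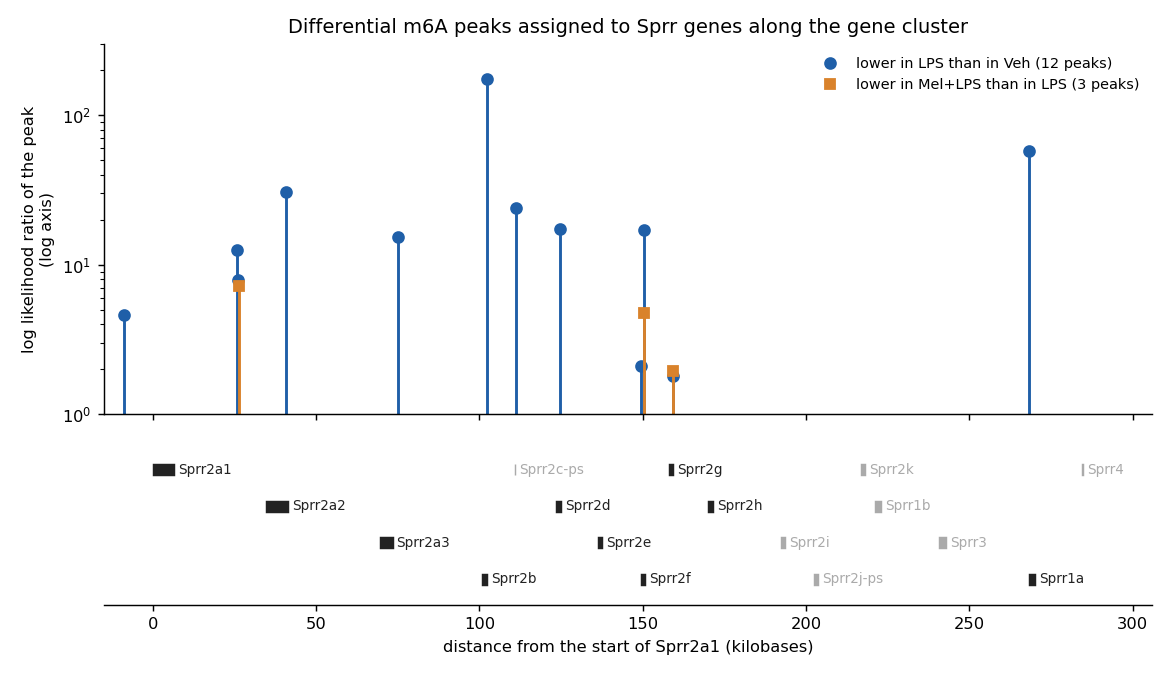
Log likelihood ratio (log axis) of each Sprr peak against distance from the start of Sprr2a1 in kilobases, with circles for the 12 peaks lower in LPS than in Veh and squares for the 3 peaks lower in Mel+LPS than in LPS; bars below are the RefSeq genes, members in black and other Sprr genes in grey. Sprr2b (174.4) and Sprr1a (58.0) stand highest, and no peak lies over the bars of Sprr2a1, Sprr2a3, Sprr2e, Sprr2h or the grey genes other than Sprr2c-ps.

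Sprr1a belongs to the other main group of the family, and outside squamous epithelium its product is known from regenerating neurons. Its single peak, chr3:92484004-92484108 on the minus strand, was lower in LPS than in Veh with a log likelihood ratio of 58.0, the 19th highest value on chromosomes 1 to 9 and the 10th on chromosome 3. The peak lay wholly in the 3′UTR, its centre 202 bases after the stop codon and within the gene. The 105 bases of the peak held 1 consensus match, 180 bases after the stop codon, and no GGAC. It is shown with its neighbouring bases because Sprr1a is the only member of the set outside the Sprr2 group and its peak had no match in any other gene.
Sprr1a: tcctgagcctctTAACAttgcccaaagtca

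Sprr2b had the highest value of the family. Its peak at chr3:92317978-92318176 was lower in LPS than in Veh with a log likelihood ratio of 174.4, rank 5 on chromosomes 1 to 9 and rank 4 on chromosome 3. The authors' annotation placed it in the 3′UTR, and its centre was within the gene by 8 bases. Of its 199 bases, 108 were the last bases of the transcript and 91 lay past the gene's end, where the sequence was not read here. The 108 transcript bases held 0 consensus matches, as did 12.1% of windows of that length over 21922 protein-coding transcripts. The last 30 bases of the transcript, all inside the peak, are given to show the sequence at its centre, with no capitals because nothing in them matched.
Sprr2b: gggcaatggtcactgctgtttcatttcctg

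A second peak was assigned to Sprr2b at chr3:92326816-92326959, lower in LPS than in Veh with a value of 23.9 (rank 46 on chromosomes 1 to 9). Its centre was outside Sprr2b, 8803 bases past the gene's end, and the authors' annotation called it distal intergenic. On the GENCODE annotation 85 of its 144 bases were the last bases of Sprr2c-ps, a processed pseudogene of the family that lies between Sprr2b and Sprr2d. These 85 bases also held 0 consensus matches, as did 18.8% of windows of that length.

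Sprr2d had 1 peak, chr3:92340497-92340630, lower in LPS than in Veh with a value of 17.2. It began 14 bases before the end of the coding sequence and its centre was 52 bases after it, in the 3′UTR and within the gene. Its 134 bases lay wholly on the transcript and held 1 consensus match, the GGACA printed above. This peak and the one on Sprr2c-ps began at corresponding places of both sequences, as their first 30 bases show, with the longest run that both share (14 bases) in capitals.
Sprr2d: cctAAGAGCAAGTGAGGtcttcagcagtca
Sprr2c-ps: ccAAGAGCAAGTGAGGgcttcagaagaatt

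Over the 111 bases that could be aligned, the Sprr2d peak was 89.2% identical to Sprr2e, the neighbouring gene without a peak. The Sprr2c-ps peak was 78.9% identical to Sprr2e over 95 aligned bases.

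Sprr2f, the best known of the estrogen-responsive members, had peaks in both comparisons. The peak at chr3:92365951-92366485 was lower in LPS than in Veh with a value of 17.1, and the peak at chr3:92366020-92366436 was lower in Mel+LPS than in LPS with a value of 4.74. The first spans 535 bases and contains the whole 417 bases of the second, their centres 10 bases apart. Both centres were in the 3′UTR and within the gene, 92 and 102 bases after the stop codon, and each peak held 5 consensus matches, of which 1 was the GGAC printed above. A further Sprr2f peak, chr3:92365213-92365406, was lower in LPS than in Veh with a value of 2.09, below the median of its table. The authors' annotation called it 5′UTR, and its centre was within the gene, but 16 of its 194 bases lay on an exon and the centre was in the intron.

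Sprr2g, which GENCODE lists as a polymorphic pseudogene, was the other member whose peaks overlapped between the comparisons. Sprr2a2 also had peaks in both, but these did not overlap. The peak at chr3:92374843-92375243 was lower in LPS than in Veh with a value of 1.80. The peak at chr3:92374844-92375196 was lower in Mel+LPS than in LPS with a value of 1.93. The second lay wholly inside the first, with centres 23 bases apart, and both centres were within the gene, in the last exon. Over the transcript bases each held 5 consensus matches, among them the GAACA printed above. Another was a GGACA that begins 87 bases after the end of the coding sequence. Both values were below the medians of their tables, and they were the lowest of the Sprr peaks in each comparison.

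At both shared sites the direction was therefore the same in the 2 comparisons: lower in LPS than in Veh, and lower again in Mel+LPS than in LPS. The comparisons share the LPS libraries, so their values are not independent of each other. How often peaks overlap between these tables over all genes is not given here. The repeated direction can therefore not be called particular to the Sprr genes. Mel+LPS was not compared with Veh in these tables. The third Sprr peak lower in Mel+LPS than in LPS, assigned to Sprr2a2, overlapped no peak of the other comparison, and the nearest, also assigned to Sprr2a2, lay 19 bases away.

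**Figure D3:**
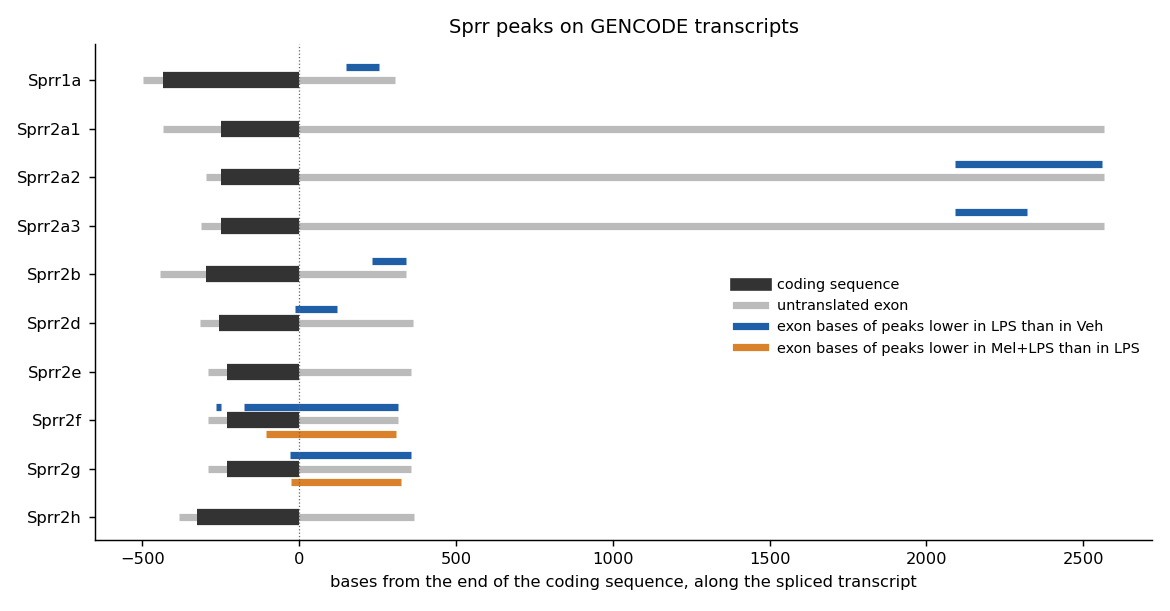
Spliced GENCODE transcripts of the 10 members in bases, aligned at the end of the coding sequence (dotted line), with coding sequence in black, untranslated exon in grey, and the exon bases of peaks lower in LPS than in Veh (above each transcript) and lower in Mel+LPS than in LPS (below). The Sprr2d, Sprr2f and Sprr2g peaks cross the end of the coding sequence, the Sprr1a and Sprr2b peaks lie further along the 3′UTR, and the Sprr2a2 and Sprr2a3 peaks begin 2091 bases after it.

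Sprr2a1, Sprr2a2 and Sprr2a3 are near-identical tandem copies, with starts 34812 and 34657 bases apart and coding sequences 98.8% to 100% identical over the 3 pairs. Other pairs of Sprr2 members ranged from 60.6% to 90.0% (33 pairs), and Sprr1a with the Sprr2 members from 39.2% to 51.2% (9 pairs). Members of the Sprr2a group had peaks at the far end of a long 3′UTR and at places upstream of the gene, and none near the stop codon.

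The Sprr2a2 peak at chr3:92256247-92256715 was lower in LPS than in Veh with a value of 30.5, rank 30 on chromosomes 1 to 9. All of its 469 bases lay on the last exon, the centre 2325 bases after the stop codon and within the gene, and they held 13 consensus matches. The Sprr2a3 peak at chr3:92290930-92291159 was lower in LPS than in Veh with a value of 15.3. The authors' annotation called it distal intergenic, with its centre 1781 bases past the RefSeq end of the gene. On the GENCODE transcript, whose 3′UTR is longer, all of its 230 bases lay on the last exon of Sprr2a3, 2205 bases after the stop codon at the centre. Measured from each gene's start, the Sprr2a2 peak ran from 5600 to 6068 bases and the Sprr2a3 peak from 5626 to 5855, wholly within the same stretch of the other copy.

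The remaining Sprr2a peaks lay about 8 to 9 kilobases upstream of a gene start, with centres outside the assigned gene and the class distal intergenic. Sprr2a1 had 1, at chr3:92207037-92207236, lower in LPS than in Veh with a value of 4.60. Sprr2a2 had 2 lower in LPS, at chr3:92241458-92241793 (12.5) and chr3:92241975-92242150 (7.91), and 1 lower in Mel+LPS than in LPS, at chr3:92242170-92242369 (7.23). Aligned at the gene starts, the Sprr2a1 peak overlapped the second of these Sprr2a2 peaks by 74 bases. These 3 Sprr2a2 peaks fell within the span of a longer GENCODE transcript of Sprr2a2 but on none of its exons.

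**Figure D4:**
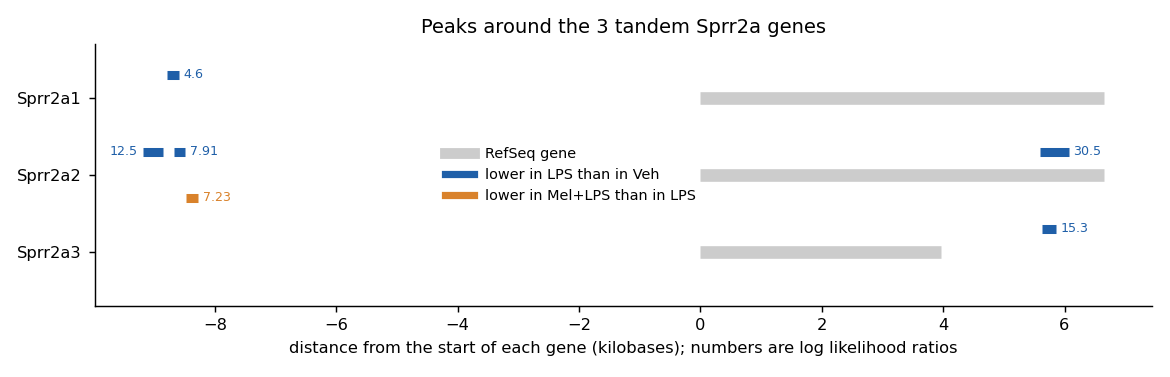
Peaks around Sprr2a1, Sprr2a2 and Sprr2a3 against the distance from each gene's start in kilobases, with grey bars for the RefSeq genes and the log likelihood ratio printed at each peak. The Sprr2a3 peak (15.3) lies at the distance of the Sprr2a2 3′UTR peak (30.5) but past the end of its own RefSeq gene, and the Sprr2a1 upstream peak (4.60) lies near those of Sprr2a2.

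Because copies this alike can exchange reads, the share of each transcript found elsewhere was counted in windows of 50 bases. Only exon bases were counted, so the peaks upstream of Sprr2a1 and Sprr2a2 were not covered. Which copy the reads of those peaks came from is unknown. In Sprr2a1 96.3% of windows, in Sprr2a2 96.5% and in Sprr2a3 61.1% occurred unchanged in a transcript of another gene. The share was 13.7% in Sprr2b, 10.2% in Sprr2e, 4.27% in Sprr2d, 0.714% in Sprr2f and 0% in Sprr2g, Sprr2h and Sprr1a. Within the peaks, all windows of the Sprr2a2 3′UTR peak were shared, as were 72.4% for Sprr2a3 and 42.4% for Sprr2b, but 0.903% for Sprr2f and 0% for Sprr2d, Sprr2g, Sprr1a and Sprr2c-ps. In windows of 100 bases the share was 100% for the Sprr2a2 peak, 23.7% for Sprr2a3 and 0% for Sprr2b. Which copy the reads came from is therefore uncertain for the Sprr2a2 peak at both lengths. A window counted as shared only when every base matched. The Sprr2a3 peak matched Sprr2a1 at 229 of its 230 bases (99.6%), so its copy of origin is uncertain too, whatever the window share. For the Sprr2b peak it is uncertain as well, since 105 of 107 aligned bases matched Sprr2a1. The 0% of that peak at 100 bases rests on 9 windows. Its 91 bases past the gene's end were not compared. The peaks of Sprr2d, Sprr2f, Sprr2g and Sprr1a rest almost wholly on sequence of their own at both lengths. How the authors' alignment treated reads with several matches is not given in the sources used here.

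**Figure D5:**
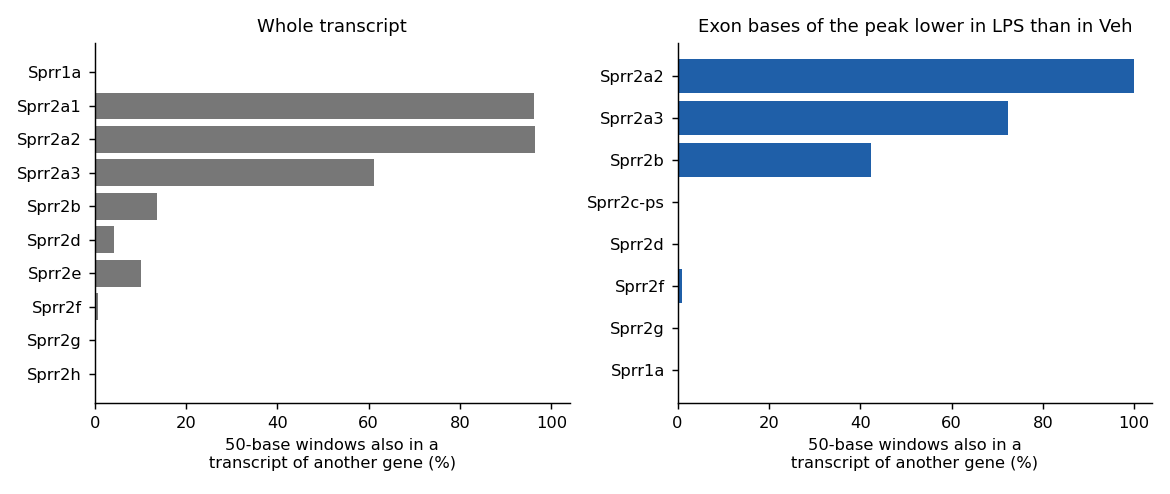
Percent of 50-base windows that also occur in a transcript of another gene, for the whole transcript of each member (left) and for the exon bases of each peak lower in LPS than in Veh (right). The 3 Sprr2a copies stand highest on the left (61.1% to 96.5%), and the Sprr2a2, Sprr2a3 and Sprr2b peaks highest on the right (42.4% to 100%).

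The far 3′UTR of the Sprr2a genes also resembled protein-coding genes outside the family, 10 for the Sprr2a2 peak and 9 for the Sprr2a3 peak. The Sprr2a2 peak was identical to Sprr2a1 over all 469 bases and 89.1% identical over 395 aligned bases to Rpl21, the gene for ribosomal protein L21 on chromosome 5. The closest of the 10 was BC004004 on chromosome 17, 90.0% identical over 391 aligned bases. In all the Sprr2a2 peak had matches in 145 other genes, 131 of them pseudogenes. The Sprr2a3 peak was 86.5% identical to Rpl21 over 156 aligned bases and had matches in 130 genes, 117 of them pseudogenes. The longest run that the Sprr2a3 peak shares with Rpl21 is 25 bases and is printed to show the likeness.
Sprr2a3 and Rpl21: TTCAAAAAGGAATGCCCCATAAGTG

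The peaks of Sprr2b, Sprr2d, Sprr2f, Sprr2g and Sprr1a had no match in a protein-coding gene outside the family. The Sprr2b peak was 98.1% identical to Sprr2a1 over 107 aligned bases, and the only peak of Sprr2a1 itself was the one upstream of the gene.

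By place, 7 of the 12 Sprr peaks lower in LPS had a centre within the assigned gene, and 5 did not. Over all peaks of that table on chromosomes 1 to 9, 50.8% had a centre outside the assigned gene. Of the 12, 5 were called 3′UTR and 5 distal intergenic, beside 21.9% and 9.87% of all peaks of the table. On the GENCODE annotation 8 of the 12 had bases on an exon of the gene they were assigned to, and 1 had bases on the Sprr2c-ps pseudogene. Of the 3 peaks lower in Mel+LPS, 2 had a centre within the gene, where 59.1% of all peaks of that table had a centre outside it.

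Other genes of the family and of the complex were counted in the same tables. None of the 6 other Sprr genes in the annotation (Sprr1b, Sprr2i, Sprr2j-ps, Sprr2k, Sprr3 and Sprr4) had a peak in any table. Of 53 cornified envelope and epidermal differentiation complex genes on chromosomes 1 to 9, 10 had a peak in any table. The share of all annotated genes with a peak is not given here, so neither count has a background. For some of the 10, every peak centre lay outside the assigned gene. Of these 10, 4 had a peak lower in LPS and 4 a peak higher in LPS, beside 48.9% and 45.5% of all genes with a peak, and 3 and 5 had a peak lower and higher in Mel+LPS than in LPS, beside 39.2% and 49.5%. Within this list, S100a10, which encodes the partner of annexin A2, reached a log likelihood ratio of 14.2 on a peak higher in LPS than in Veh. No other gene of the list reached 10 in any table.

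Uterine epithelial genes were looked up because the Sprr2 genes are epithelial. Of 9 such genes on chromosomes 1 to 9, 7 had a peak in any table, again without a share of all annotated genes beside it. All 7 had a peak lower in LPS than in Veh (Cdh1, Clca1, Cldn4, Elf3, Lcn2, Ltf and Muc1), and 0 had a peak higher in LPS, beside 48.9% and 45.5% of all genes with a peak. In Mel+LPS against LPS, 5 had a lower peak and 1, Cdh1, a higher one, beside 39.2% and 49.5%. Besides Clca1, the highest values were 20.9 for Elf3, an epithelial transcription factor, 19.9 for Lcn2, an iron-sequestering secreted protein, 15.9 for the adhesion gene Cdh1 on a peak assigned to its neighbour Tango6, and 12.2 for the estrogen-induced lactoferrin gene Ltf. Of 4 leukocyte genes on these chromosomes 3 had a peak in any table. Of these 3, 1 had a peak lower in LPS and 2 a peak higher in LPS, beside 48.9% and 45.5%. The only peak of the 1 lower gene was distal intergenic, its centre outside the gene. That gene was also counted in the cornified envelope list. In Mel+LPS against LPS 1 gene had peaks in both directions, beside 39.2% of genes with a lower and 49.5% with a higher peak. So few genes allow no contrast with the epithelial genes. Whether the number of epithelial cells differed between the groups was not tested.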

How the data were processed

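m6A-seq was done on uterine RNA, with 3 input and 3 immunoprecipitated libraries for each of the Veh, LPS and Mel+LPS groups. Read trimming by the authors used Fastp and alignment to mm10 used STAR (2.5.2a). They called peaks with exomePeak2, compared groups with MACS2 (3.4) and annotated differential peaks with ChIPseeker (1.22.1). The deposited tables give 1 unnamed score for each peak, read here as the log10 likelihood ratio of the difference that the authors obtained from MACS2. How replicates and input libraries entered this score is not given in the sources used here. The tables hold neither a value per library nor a read depth, so no test was run and no interval was computed.

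Rows were taken where the assigned gene, or the gene named in the annotation, was 1 of the 10 Sprr genes. All 10 genes were named. Genes of the other lists were given values where a log likelihood ratio reached 10. Cldn4 and Muc1, which did not reach it, are named only to complete a count, and 1 gene of the uterine epithelial list is not reported here. The members and lists were chosen with earlier results of these data known. The deposited table of peaks lower in LPS breaks off within a later chromosome, so tables were compared on chromosomes 1 to 9. The RefSeq coordinates of the tables matched GRCm38. Peaks were placed on GENCODE transcripts (release M21, GRCm38) and compared with all other transcripts in windows of 50 and 100 bases and with BLAST+ 2.17.0 (E-value limit 1e-05). Promoters were those of RefSeq, from 250 bases before to 50 after the start. The alternatives were the gene identifier alone, peak centres within the gene, log likelihood ratios of at least 3 and at least 10, other rules of overlap, and features read from GENCODE. Python 3.11.15, pandas 2.3.3 and Biopython 1.88 were used, and the counting steps were tested on simulated peaks.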

Additional observations from a re-analysis of the deposited data

How the results depend on the processing

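No paired analysis was possible because the tables hold no value per replicate, although the labels number the replicates alike in each group; for the same reason no replicate could be left out. Of 18 alternatives to a count or value above 0, 14 left it within its limit and 4 moved it. The counts of 0 Sprr peaks in the tables of higher peaks could not change, since the alternatives only removed or relabelled peaks. With peak centres required to lie within the assigned gene, the Sprr peaks lower in LPS than in Veh went from 12 to 7, and the highest log likelihood ratio of those lower in Mel+LPS than in LPS went from 7.23 to 4.74. Where the log likelihood ratio had to reach 10, 8 Sprr peaks lower in LPS and 0 of the 3 lower in Mel+LPS were left. With features read at the peak centre from GENCODE, the 3′UTR peaks lower in Mel+LPS went from 1 to 2, the added one on Sprr2g. Unknown depth and replicate spread limit every value.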

Other observations

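The promoters of the members, which no result above used, were compared with each other. RefSeq promoters on GRCm38, from 250 bases before to 50 bases after the start, were found for 9 of the 10 members and for 32851 genes in all. TATAAA, the TATA box, was present on either strand in 6 of the 9 (Sprr2b, Sprr2d, Sprr2e, Sprr2f, Sprr2h and Sprr1a) and in 13.6% of all promoters. It began 29 bases before the start in each of the 5 Sprr2 genes and 43 bases before it in Sprr1a. TGANTCA, the letters bound by AP-1 factors, which reads the same on both strands, was present in the same 6 members and in 7.81% of all promoters. It began 193 to 198 bases before the start in the 5 Sprr2 genes. Sprr2e and Sprr2h, which had no peak, thus held both motifs, as did 4 of the members with peaks. Sprr2a1, Sprr2a2 and Sprr2a3, which also had peaks, held neither in the window at their RefSeq start. Sprr2g, the remaining member with peaks, is in neither of these groups, so nothing is said of its promoter. A longer GENCODE transcript of Sprr2a2 reaches further upstream, and the bases at its start were not searched. The bases around the second motif are printed for the 5 Sprr2 genes, with the motif in capitals (plus strand).
Sprr2b: aaaaggactctTGAGTCAcaagactcaacc
Sprr2d: tgagtgctcacTGAGTCAcaggtctcaacg
Sprr2e: tgagtgctcacTGAGTCAcaggtctcaaca
Sprr2f: aaactgaatatTGAGTCAcagtgctcaaca
Sprr2h: gggatggtctcTGAGTCActgcactttacc

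The consensus estrogen response element, GGTCA and TGACC with 3 bases between them, was present in 0 of the 9 member promoters and in 0.07% of all promoters. These are matches of letters in a fixed window and say nothing of binding.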
